A study of Drosophila melanogaster with 2 samples.

Results

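The proteasome subunit genes of Drosophila melanogaster were examined as possible binding sites of Corto, a chromodomain protein that acts with both the Polycomb and the Trithorax group. Members were chosen by symbol from the annotated protein-coding genes, as those starting with Prosalpha or Prosbeta, or with Rpn or Rpt followed by a digit. This gave 48 of the 13945 protein-coding genes on the 6 chromosome arms, with 61 of their 19607 transcription start sites (TSSs). By symbol, 25 encode core particle subunits (12 of the alpha rings and 13 of the beta rings) and 23 encode regulatory particle subunits (14 of the base and 9 of the lid). Duplicate copies, whose number is followed by R or T, made up 16 of the 48, and the other 32 are called first copies below. The samples were whole embryos 0 to 24 h old, of pooled sexes, from 1 transgenic line carrying Corto with GFP at its C terminus, and chromatin was precipitated with an antibody against GFP. There were 2 biological replicates of this 1 group, so no condition could be compared. Whole embryos pool all embryonic cell types and ages within that span, and a promoter occupied in few cells cannot be told apart from one occupied weakly in many.

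The proteasome degrades proteins that carry ubiquitin chains. Its core particle is a barrel of stacked rings, with an outer alpha ring at either end that gates the entry and inner beta rings that hold the proteolytic sites. The regulatory particle caps the barrel. Its base holds a ring of ATPases, the Rpt subunits, that unfold substrates, together with ubiquitin receptors, and its lid holds the deubiquitinase Rpn11 and scaffold subunits. In Drosophila, many subunits have a second gene, and several of these duplicates are known as testis forms of the proteasome.

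Peaks were taken from 4 deposited lists on the dm6 genome build. The optimal set of 2644 peaks was derived by the authors from both replicates by their irreproducible discovery rate (IDR), which scores whether a peak ranks alike in both. The pooled list and each replicate's list held 30000 entries each, background included. A promoter summit is a peak summit within 500 bp of a TSS of the gene. All signals are the authors' deposited peak values on a scale that no source used here gives, and ranks count from the strongest peak of a list. Read depth is unknown. All intervals are 95% Wilson intervals for single shares and Newcombe score intervals for differences, and they cover counting error only. No test was made on the members, because they were chosen with earlier results of these data known.

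Few proteasome gene promoters lay under a Corto-GFP peak of the optimal set, and their share was not separated from that of all genes. An optimal promoter summit was present at 3 of 48 members (6.25%, interval 2.15 to 16.8), against a background of 9.90% (1381 of 13945 genes). The 3 were Rpn5 and Rpn6, which encode scaffold subunits of the lid, and Rpt5, which encodes an ATPase of the base. Each had the same rank there as in the pooled list, and Rpt5 ranked 835 in replicate 1 and 5786 in replicate 2. In the pooled list 12 members (25%, interval 14.9 to 38.8) had a promoter summit, against 39.1% of all genes. The whole list of replicate 1 gave 24 members (50%, interval 36.4 to 63.6) against 48.0%, and that of replicate 2 gave 12 members (25%) against 37.7%. Both replicate lists held a promoter summit for 8 members (16.7%, interval 8.70 to 29.6), compared with 29.3% of all genes. No list held one for 20 members (41.7%), compared with 42.4% of all genes. With first and duplicate copies together, the share was below the background in 3 lists and near it in replicate 1. The interval contained the background for the optimal set and both replicates, and ended just below it for the pooled list.

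No core particle gene had an optimal promoter summit. The count was 0 of 25 core genes, which allows a share of up to 12%, against 3 of 23 regulatory genes (13.04%, interval 4.54 to 32.1). The background of 9.90% lay below that limit and inside that interval. The difference, core minus regulatory, was −13.04 percentage points (interval −32.1 to 2.76), so that these counts do not separate the 2 particles. In the pooled list 4 core genes (16%, interval 6.40 to 34.7) and 8 regulatory genes (34.8%, interval 18.8 to 55.1) had a promoter summit. The background in this list was 39.1%, and the difference was −18.8 points (interval −41.3 to 5.77). The pooled-list difference shrank to −4.17 points when the whole replicate 1 list was used alone, with 12 core genes (48%) and 12 regulatory genes (52.2%). The background in that list was 48.0%. Duplicates made up 11 of the 25 core genes and 5 of the 23 regulatory genes. Among first copies alone, the order in replicate 1 was the opposite. Summits were present at 12 of 14 core genes (85.7%, interval 60.1 to 95.99) and 11 of 18 regulatory genes (61.1%, interval 38.6 to 79.7). The intervals overlap, and none was computed for this difference. By ring and subcomplex, the pooled list held 1 of 12 alpha ring genes (8.33%) and 3 of 13 beta ring genes (23.1%). It held 4 of 14 base genes (28.6%) and 4 of 9 lid genes (44.4%), and the background for all of these was 39.1%. All 3 proteolytic beta types have a first copy in the set, and of these Prosbeta2, the trypsin-like subunit gene, was the one in the pooled list. Prosbeta1 (caspase-like) and Prosbeta5 (chymotrypsin-like) had summits in replicate 1 only.

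Duplicate copies were nearly absent from the lists. Of the 32 first copies, 12 (37.5%, interval 22.9 to 54.7) had a pooled promoter summit, 23 (71.9%, interval 54.6 to 84.4) one in replicate 1 and 11 (34.4%, interval 20.4 to 51.7) one in replicate 2. Against the backgrounds of 39.1%, 48.0% and 37.7% for these lists, in that order, the first copies stood near the background in the pooled list and replicate 2 and above it in replicate 1. Of the 16 duplicates, 0 had a pooled summit, which allows a share of up to 18.75%, and 14 (87.5%) were in no list, against 42.4% of all genes. The exceptions were Rpt3R in replicate 1 (signal 19.9, rank 11994, 103 bp upstream) and Rpt4R in replicate 2 (signal 14.8, rank 21854, 32 bp upstream). All 11 core duplicates were in no list, namely Prosalpha1R, Prosalpha3T, Prosalpha4T1, Prosalpha4T2, Prosalpha6T, Prosbeta2R1, Prosbeta2R2, Prosbeta4R1, Prosbeta4R2, Prosbeta5R1 and Prosbeta5R2. So were the regulatory duplicates Rpn12R, Rpn13R and Rpt6R. Of the first copies 6 (18.75%) were in no list, namely the alpha ring gene Prosalpha1, the base scaffold gene Rpn2, the lid gene Rpn9 and the ATPase genes Rpt2, Rpt3 and Rpt4. Prosalpha1 and its duplicate Prosalpha1R both lie on arm 2R. The longest direct repeat in each promoter was 8 bases, at the same spacing of 57 bases. Whether sequence shared by these genes affected their peak calls was not tested. The optimal set gave 3 of 32 first copies (9.38%) and 0 of 16 duplicates, against a background of 9.90%. The difference of first copies minus duplicates was 9.38 points (interval −10.9 to 24.2).

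**Figure D1:**
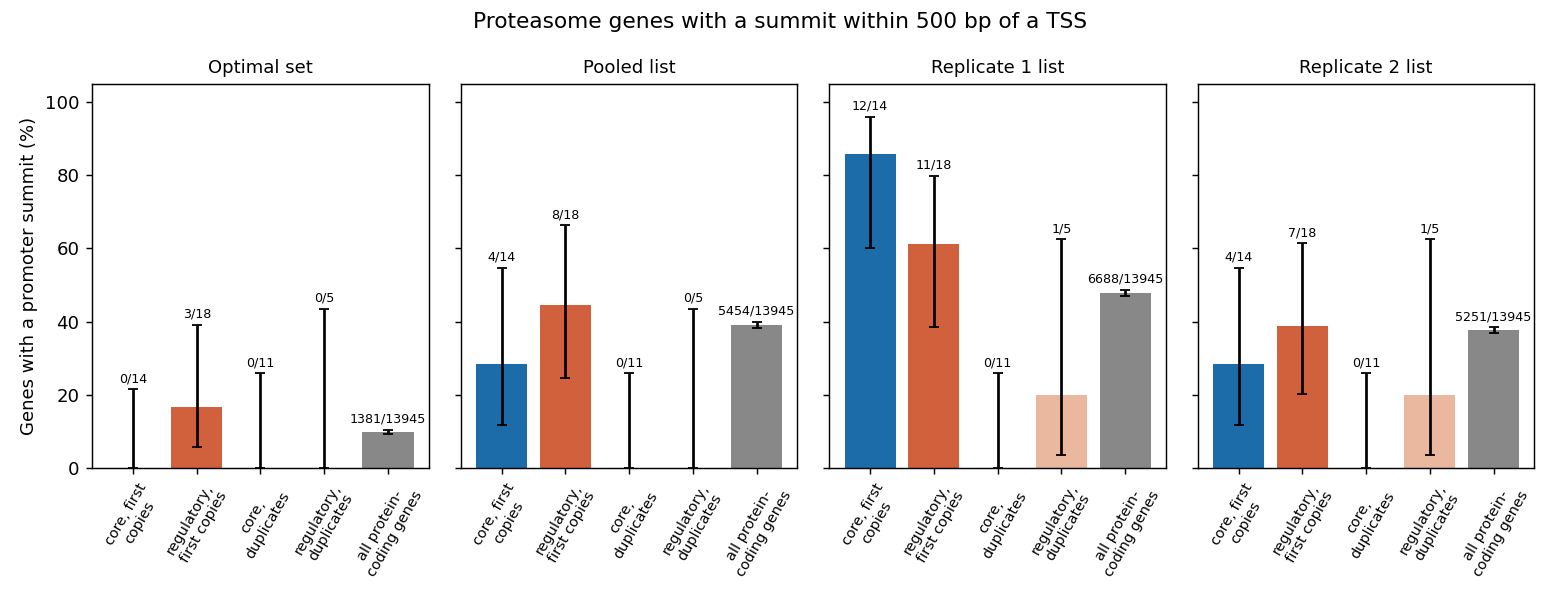
Share of genes with a summit within 500 bp of a TSS, in %, for core and regulatory first copies, core and regulatory duplicates and all protein-coding genes, in each of the 4 lists. Bars are shares, lines are 95% Wilson intervals and the numbers are genes with a summit over genes in the group; core first copies are highest in replicate 1, at 12 of 14, and core duplicates are at 0 of 11 throughout.

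Among first copies, core genes were found mainly in replicate 1. Of the 14, 12 (85.7%, interval 60.1 to 95.99) had a replicate 1 summit, 4 (28.6%) a replicate 2 summit and 4 a pooled summit. For 9 of the 14 (64.3%, interval 38.8 to 83.7) the summit was in replicate 1 and in neither replicate 2 nor the pooled list, against a background of 12.8% (1783 genes). Among the 18 regulatory first copies, 11 (61.1%) had a replicate 1 summit, 7 (38.9%) a replicate 2 summit and 8 (44.4%) a pooled summit, and 4 (22.2%) were in replicate 1 only. A summit in replicate 2 only was found for 2 members, the lid gene Rpn7 and the duplicate Rpt4R, against 4.04% of all genes.

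Rpt5 and Rpn5 are shown first because each shares a short interval with a divergent TSS. The optimal summit of Rpt5 lies in the stretch printed, whereas that of Rpn5 lies outside it, on the Hat1 side, and only a weaker pooled summit is inside. Both sequences are from the RefSeq genome of Release 6, the assembly of dm6, on the strand of the proteasome gene and written 5′ to 3′, and they end at the base before its TSS. The Rpt5 stretch is chr3R:23752816-23752875 (plus strand) and holds its 60 upstream bases, of which the first 19 are annotated exon of the divergent gene RanBP3. Capitals mark TATCGATA, the DNA replication-related element bound by DREF, which starts 46 bp upstream of the Rpt5 TSS. The Rpn5 stretch is chr3R:5789385-5789492 (plus strand), the 108 bases between the TSS of Rpn5 and the nearest one of Hat1, with a TATAAA match 96 bp upstream in capitals.
Rpt5: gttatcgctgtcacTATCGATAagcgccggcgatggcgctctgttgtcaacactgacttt
Rpn5: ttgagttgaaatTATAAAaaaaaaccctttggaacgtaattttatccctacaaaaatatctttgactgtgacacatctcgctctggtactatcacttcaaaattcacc

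At Rpt5 (FBgn0028684) the optimal summit was at chr3R:23752855, 21 bp upstream of the Rpt5 TSS and 21 bp from that of RanBP3, a nuclear export cofactor gene, since the 2 TSSs are 42 bp apart. It lay in the printed stretch, downstream of the capitals, and in no annotated transcript. The pooled signal was 97.1 (rank 1792), and the replicates gave 73.6 (rank 835, summit 78 bp away) and 31.2 (rank 5786, summit 1 bp away). Replicate 1 thus ranked the site higher and placed its summit in the 5′ UTR of RanBP3. The peak was in the weaker part of the optimal set and was not among the 2644 strongest of replicate 2.

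At Rpn5 (FBgn0028690) the optimal summit was at chr3R:5789221, 272 bp upstream of the TSS, within an intron of the divergent gene Hat1, which encodes a histone acetyltransferase, and 147 bp from one of its TSSs. The pooled signal was 146.9 (rank 740). Replicate 1 had a signal of 96.1 (rank 434) 13 bp away, and replicate 2 had 35.2 (rank 4629) 88 bp away. Replicate 2 had a stronger summit of 48.9 (rank 2340) 384 bp upstream of the TSS, so that it placed its peaks on either side of the optimal one. A weaker pooled summit of 47.7 (rank 7119) lay 68 bp upstream, inside the stretch printed for Rpn5, where replicate 1 had 56.1 (rank 1520). The optimal summit was nearer to Hat1 than to Rpn5, and Rpn5 dropped out when each summit was given to its nearest TSS.

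Rpn6 (FBgn0028689) had the highest pooled signal of the members, and the replicates gave it nearly the same signal and rank. Its optimal summit was at chr2R:14752378, with a pooled signal of 157.02 (rank 638), and lay 107 bp upstream of the second of its 2 TSSs, in an intron of the longer transcript. The replicates gave 78.9 (rank 717) and 78.1 (rank 774), with summits 14 and 5 bp away. The TSS of ave, which encodes an adaptor of Ras signalling, was 143 bp away on the opposite strand. With the most upstream TSS alone, Rpn6 was outside the window.

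**Figure D2:**
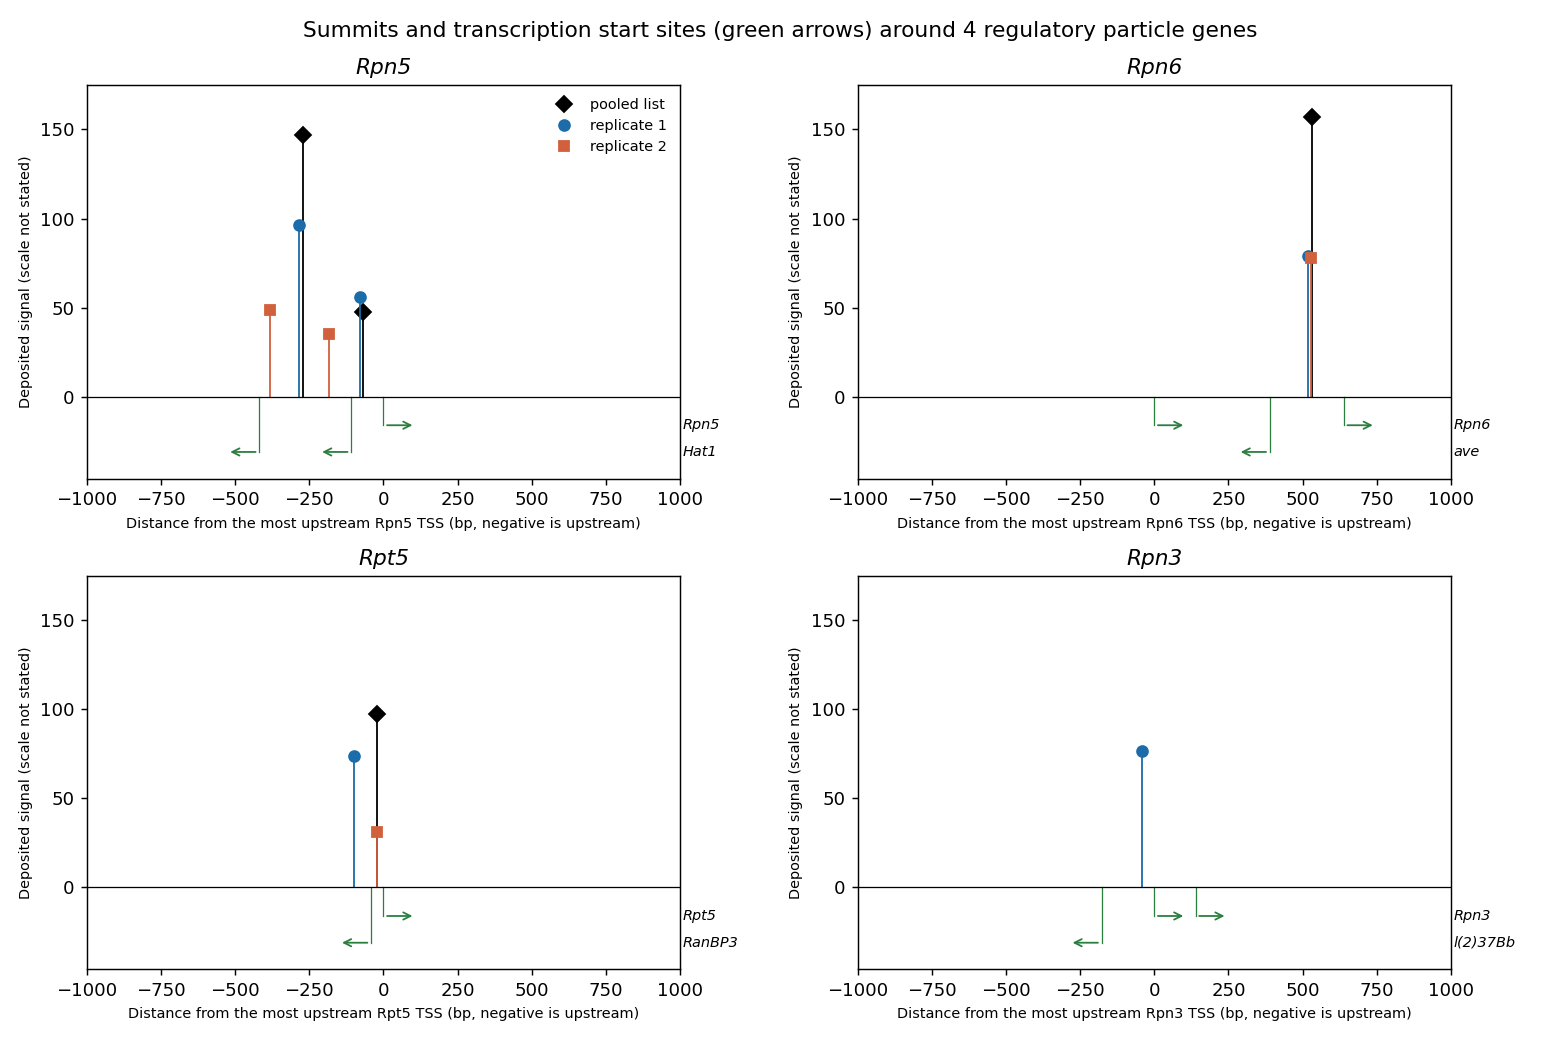
Deposited signal of each summit in the pooled list, replicate 1 and replicate 2, against distance in bp from the most upstream TSS of Rpn5, Rpn6, Rpt5 and Rpn3; green arrows are annotated TSSs and point the way of transcription. All lists meet at Rpn6, Rpn5 has split summits, and Rpn3 has a replicate 1 summit of 76.8 with no summit of the other lists within the plotted span.

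No member lay just outside the window for the optimal set. The nearest optimal summit of the other 45 genes was 1136 bp away for the beta ring gene Prosbeta6 and 1394 bp away for the deubiquitinase gene Rpn11. None lay within 5000 bp for 36 of the 48 members, compared with 10598 of the 13945 genes, a similar share. The median distance was 14370 bp for all 48 members, compared with 17378 bp for all genes. It was 11486 bp for first copies and 44046 bp for duplicates.

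A further 9 members, all first copies, had a pooled promoter summit and no optimal one. The share of all genes in this class was not counted. In the pooled list as a whole, first copies stood at 37.5% and all genes at 39.1%. The strongest was at Rpn13, a ubiquitin receptor gene, with a pooled signal of 61.3 (rank 4538) at chr2R:13960572, 168 bp upstream, with 22.2 in replicate 1 (rank 9908) and 35.6 in replicate 2 (rank 4551). This summit was 103 bp from the TSS of CtsL1, a gene for a lysosomal cathepsin. Prosbeta7 had a pooled signal of 46.8 (rank 7355) at chr3R:5358804, 440 bp upstream, with 17.4 in replicate 1 (rank 15174) and 24.2 in replicate 2 (rank 9266). Prosbeta2 had 46.3 (rank 7493) at chr3L:14999565, 386 bp upstream, with 16.9 in replicate 1 (rank 16065) and 27.8 in replicate 2 (rank 7153), in coding sequence of the divergent gene mRpL39. In all 3 genes replicate 2 ranked the site higher, the opposite order to Rpt5.

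A second pooled summit of Prosbeta2 lay 49 bp upstream, with a signal of 26.8, which replicate 2 matched with 25.4 and replicate 1 did not list. Rpn10, another ubiquitin receptor gene, had a pooled signal of 41.5 (rank 8990) at chr3L:21536869, 131 bp upstream, and neither replicate had a summit within 200 bp of it, although replicate 1 had one of 15.3 on the other side of the TSS. At Prosalpha6, an alpha ring gene, the signal was 38.4 (rank 10255) at chr2L:10221195, 156 bp upstream, with 13.8 in replicate 1 (rank 21968) and 36.2 in replicate 2 (rank 4396). It lay in the 5′ UTR of the divergent gene Npc1a, a sterol transport gene. The other 4 genes, Prosbeta6, Rpn8, Rpt6 and Rpn11, had pooled signals from 21.4 to 34.04 at their strongest promoter summit. At Rpt6, an ATPase gene, the pooled summit was 141 bp downstream of the TSS, the only pooled one of the members on that side. Over the 12 members in the pooled list the median of the strongest signal was 43.9, compared with 48.8 for the 5454 genes with such a summit.

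A set of 14 members had a promoter summit in replicate 1 only. Among them were 9 core genes and 5 regulatory genes, 13 of them first copies, 29.2% of the members (interval 18.2 to 43.2) against the 12.8% of all genes given above. Their signals in replicate 1 ran from 14.6 to 76.8, with a median of 25.6. The nearest pooled summit was at least 629 bp away in each case, with a median of 4533 bp. Of the 9 genes with a pooled summit and no optimal one, 7 had a replicate 1 signal, from 12.5 to 22.2 with a median of 16.9, so that the 2 ranges overlap.

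Of the 14, 2 ranked among the 2644 strongest peaks of replicate 1. The lid gene Rpn3 had a signal of 76.8 (rank 761) at chr2L:19051750, 40 bp upstream, above that of Rpt5 in the same replicate. Prosalpha7 of the alpha ring had 61.6 (rank 1263) at chr2R:9847868, 32 bp upstream. Neither had a promoter summit in replicate 2 or the pooled list, with the nearest pooled summits 11257 bp away for Rpn3 and 3946 bp away for Prosalpha7. The next were Prosbeta3 with 41.9 (rank 2878), Prosbeta1 with 41.6 (rank 2922), the ATPase gene Rpt1 with 38.98 (rank 3353), the base scaffold gene Rpn1 with 33.2 (rank 4694) and Prosalpha5 with 28.4 (rank 6309). These 5 peaks lay 44 to 255 bp upstream of a TSS. The other 7, Prosbeta4, Prosalpha3, Rpt3R, Prosalpha2, Prosbeta5, Prosalpha4 and Rpn12, had signals of 22.9 or less.

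Replicate 1 as a whole had more strong promoter peaks that the pooled list lacked. Of its 2644 strongest summits, 6.20% had no pooled summit within 500 bp, compared with 0.832% of those of replicate 2, and at promoters the shares were 11.9% and 1.46%. Among the 2644 strongest peaks of a replicate, promoter summits were found for 5 members in replicate 1 (10.4%, against a background of 11.8%) and 2 members in replicate 2 (4.17%, against 8.78%). Of the 5 members in replicate 1, 2 had no pooled summit, and the background for that was 15.4% of 1642 genes. The part of this replicate difference in the counts of core genes was not tested.

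**Figure D3:**
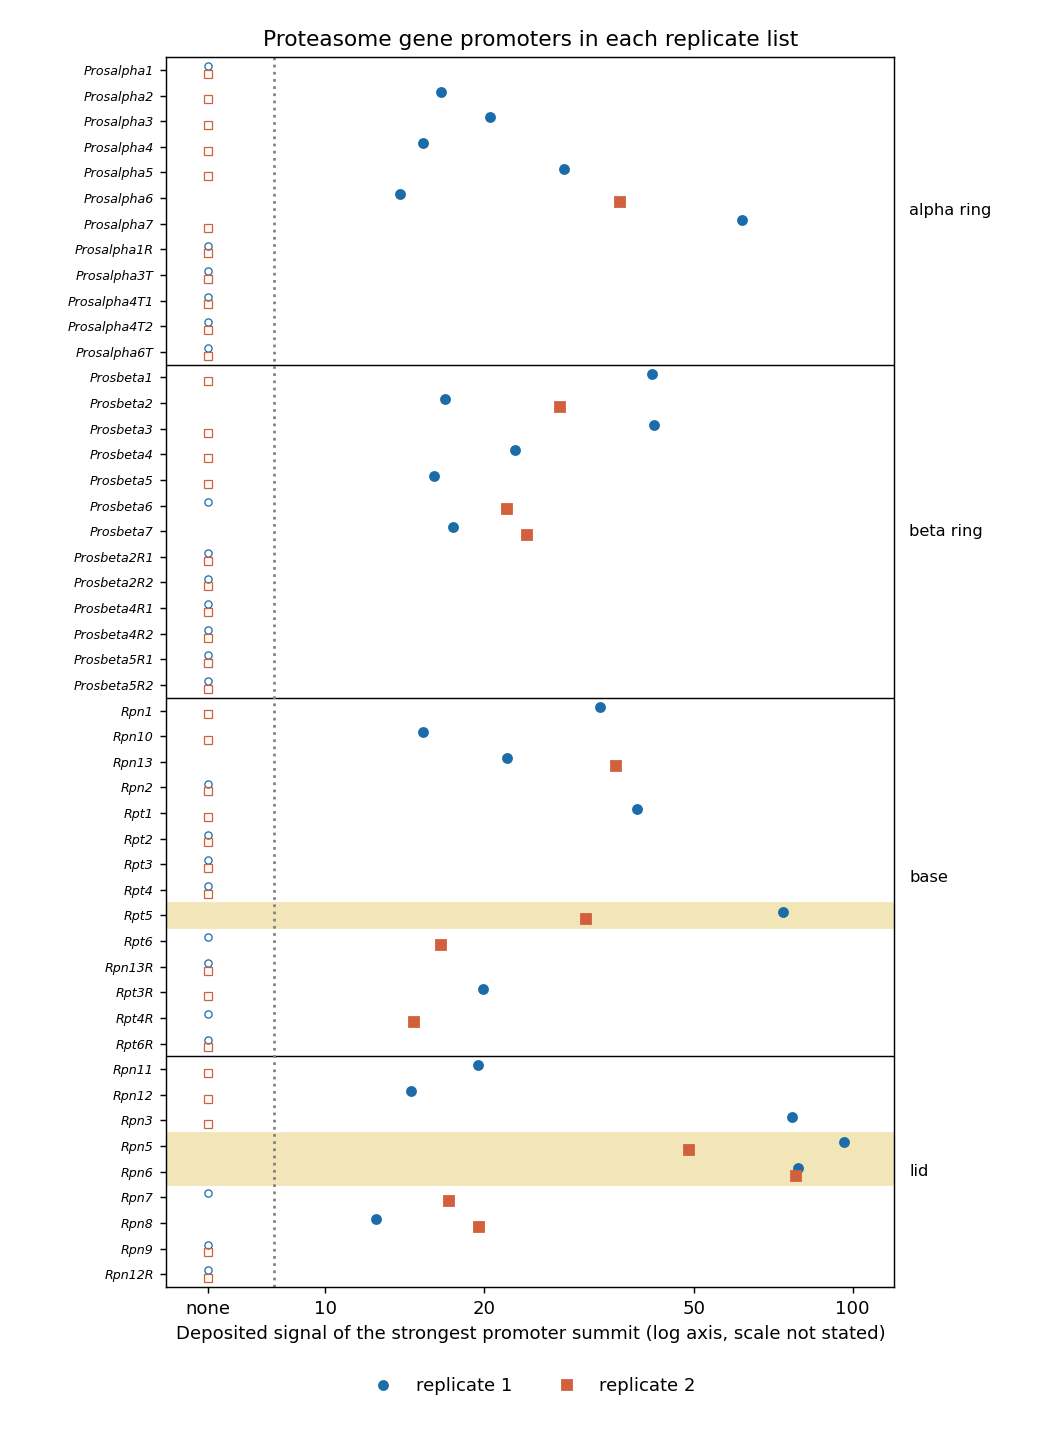
Deposited signal of the strongest promoter summit of each of the 48 members on a log axis, in replicate 1 (circles) and replicate 2 (squares), grouped by ring or subcomplex; open marks at the left are genes with no promoter summit in that list, and shaded rows are the 3 genes with an optimal summit. Filled circles without a filled square are the genes seen in replicate 1 only, with Rpn3 and Prosalpha7 farthest to the right.

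Summits of proteasome genes lay mostly upstream of the TSS. In the pooled list 14 of 15 pairs of gene and summit were upstream (93.3%), at a median offset of −156 bp (quartiles −235.5 and −72.5), compared with 70.9% and −119 bp for all genes. In replicate 1, 27 of 29 pairs were upstream (93.1%, compared with 70.7% of all pairs), and in replicate 2, 15 of 16 (93.75%, compared with 69.7%). In replicate 1 the downstream pairs were Prosbeta4 (405 bp downstream, signal 12.1) and Rpn10 (13 bp). Since the lists share reads and a gene can hold several summits, these pairs are not independent.

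**Figure D4:**
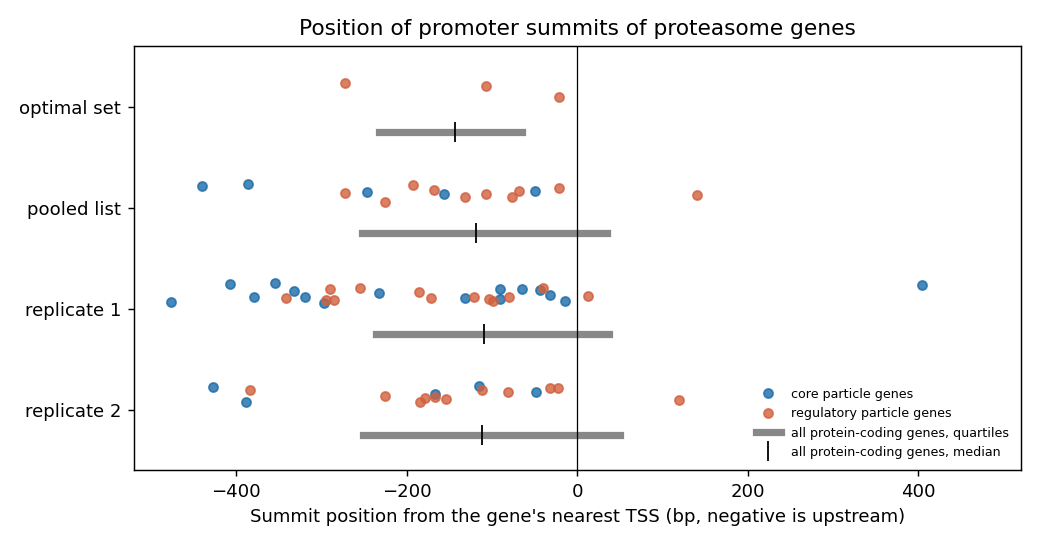
Position in bp of each promoter summit from its gene's nearest TSS for core and regulatory particle genes in the 4 lists; points are spread vertically for clarity. Grey bars and black ticks are the quartiles and median of all protein-coding genes, and in each list no more than 2 of the members' points lie downstream of the TSS.

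Divergent promoters were common among the members. A TSS of the opposite strand lay within 500 bp upstream of 24 of 48 members (50%), compared with 27.4% of all protein-coding genes. The share was 65.6% of the 32 first copies and 18.75% of the 16 duplicates, and among first copies it was 9 of 14 core genes and 12 of 18 regulatory genes. All 3 genes with an optimal summit had such a partner, but the share with a partner among all genes with an optimal summit was not counted. Of the 21 first copies with a partner 14 had a replicate 1 summit (66.7%), and of the 11 without one 9 did (81.8%), compared with 65.7% and 41.3% of all genes with and without a partner. In the pooled list the counts were 7 of 21 (33.3%) and 5 of 11 (45.5%), compared with 44.4% and 37.1% of all genes. A summit in such an interval counts for both genes, and which of them it belongs to was not tested.

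The most frequent motif difference between first copies and duplicates was TATCGATA. Promoters were read as 300 bases from 250 before to 49 after the most upstream TSS, which is position 0, and searched on both strands. TATCGATA was found in 12 of 48 members (25%), compared with 9.36% of all promoters, and all 12 were first copies (37.5% of 32, compared with 0 of 16 duplicates, which allows up to 18.75%). They were Prosalpha3, Prosalpha5, Prosalpha6, Prosbeta1, Prosbeta2, Prosbeta6, Rpn3, Rpn7, Rpn9, Rpn12, Rpn13 and Rpt5. Matches outside the window were not counted. The duplicate Rpt3R has one, 45 bp upstream of the more downstream of its TSSs. The 60 bases before the TSS are shown for 3 core genes of the 12 and for a duplicate each of the first and the second of them. The other duplicate of Prosbeta2, Prosbeta2R2, is not printed. The stretches shown are from the RefSeq Release 6 genome, 5′ to 3′ on the gene's strand (minus for Prosbeta6, plus for the others), with TATCGATA in capitals. They are chr2L:10221291-10221350 for Prosalpha6, chr2L:13231979-13232038 for Prosalpha6T, chr3L:14999891-14999950 for Prosbeta2, chrX:5808894-5808953 for Prosbeta2R1 and chr3L:16610419-16610478 for Prosbeta6.
Prosalpha6: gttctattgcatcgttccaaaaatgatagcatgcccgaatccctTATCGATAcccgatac
Prosalpha6T: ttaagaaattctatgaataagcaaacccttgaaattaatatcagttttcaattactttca
Prosbeta2: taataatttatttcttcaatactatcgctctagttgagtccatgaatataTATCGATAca
Prosbeta2R1: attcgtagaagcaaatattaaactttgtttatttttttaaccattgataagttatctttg
Prosbeta6: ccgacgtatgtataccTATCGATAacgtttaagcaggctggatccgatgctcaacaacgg

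In these first copies the motif started 16, 10 and 44 bp upstream of the TSS, for Prosalpha6, Prosbeta2 and Prosbeta6 in that order. Pooled summits were present at 5 of the 12 first copies with the motif (41.7%) and 7 of the 20 without it (35%), compared with 48.6% and 38.1% of all genes with and without it. For replicate 1 the counts were 9 of 12 (75%) and 14 of 20 (70%), compared with 67.7% and 45.9% of all genes. For replicate 2 they were 6 of 12 (50%) and 5 of 20 (25%), compared with 44.98% and 36.9%. In the optimal set they were 1 of 12 (8.33%) and 2 of 20 (10%), compared with 13.9% and 9.49%. Among first copies the shares were thus higher with the motif in the pooled and replicate lists and slightly lower in the optimal set, on few genes. Among all genes they were higher with the motif in each list.

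The shorter CGATA, read by BEAF-32 and contained in TATCGATA, was found in 35 members (72.9%, compared with 47.4% of all promoters), 27 of them first copies. GAGAG, the GAGA factor motif, was found in 9 members (18.75%, compared with 29.7%), of which 6 were duplicates. The M1BP motif GGTCACACT was in 5 members (10.4%, compared with 6.05%), and TGACNNNGC, the antioxidant response element of cap-n-collar and Maf proteins, in 6 (12.5%, compared with 8.63%). TATAAA was found in 18 members (37.5%, compared with 45.8%) and the initiator motif TCAGT in 26 (54.2%, compared with 51.5%). CAGCTG, an E-box, was in 2 members (4.17%, compared with 17.7%), and GAANNTTC, a pair of heat shock element units, was in 2 (4.17%, compared with 9.37%). The median GC content of the windows was 33.2% for members and 38% for all genes, and the motif counts were not adjusted for it.

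The promoter of Rpn3, where replicate 1 had its strongest summit without a pooled one among the members, holds a tandem repeat. A stretch of 78 bases occurs back to back without a mismatch, from position −187 to position −32, and the replicate 1 summit at position −40 lay in the second copy. The longest direct repeat in the other 47 promoters was 16 bases. An exact direct repeat of 78 bases or more was found in 5 of the 13945 promoters (0.0359%), and one of 50 or more in 11. The repeat is shown from the RefSeq Release 6 genome at chr2L:19051603-19051758 (plus strand), the first copy in lower case and the second in capitals, and its first 10 bases are annotated exon of the divergent gene l(2)37Bb. How the authors' read filters treated repeated sequence is not stated in any source used, and its part in the replicate difference was not tested.
Rpn3: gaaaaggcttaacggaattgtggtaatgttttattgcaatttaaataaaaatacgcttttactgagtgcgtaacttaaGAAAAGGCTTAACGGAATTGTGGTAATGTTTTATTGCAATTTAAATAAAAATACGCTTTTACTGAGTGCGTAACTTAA

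Several genes that act with the proteasome had promoter summits. Of 21 listed genes 19 were matched by symbol, all but Pa200 and Ufd1-like, and 2 of the 19 had an optimal summit (10.5%, against 9.90%), 12 a pooled one (63.2%, against 39.1%), 16 one in replicate 1 (84.2%, against 48.0%) and 12 one in replicate 2 (63.2%, against 37.7%). The optimal ones were Pomp, which encodes the maturation chaperone of the core particle, and cnc, which encodes a transcription factor known to activate proteasome genes in Drosophila. Pomp had a pooled signal of 173.7 (rank 501) 251 bp upstream, with 86.1 in replicate 1 and 96.2 in replicate 2. The cnc summit had 164.3 (rank 570) 304 bp downstream of a TSS, with 72.1 in replicate 1 and 81.4 in replicate 2. Both were above the 3 subunit genes in the pooled list. By set, the pooled list held 4 of 6 accessory and assembly factors, 3 of 4 regulators and 5 of 9 ubiquitin, shuttle and unfolding genes.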

How the data were processed

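ChIP-seq of Corto-GFP was represented by narrowPeak lists on dm6. Per the deposited notes, the replicate lists and the pooled list were derived from alignments with a control, and the optimal set from these lists. No source used here names the aligner, peak caller, read filters or IDR threshold. The control reads were not analysed here. The authors deposited a signal per peak with no stated scale or depth, so it served to describe and rank peaks inside each list. The dm3 lists were not used here.

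Summits (the peak start plus the deposited summit offset, 1-based) were assigned to every gene with a TSS within 500 bp, from Ensembl release 115 (BDGP6.54) on the 6 arms. A replicate value belongs to the replicate summit nearest to an optimal or pooled one within 200 bp, or otherwise to the strongest in the window. Sequence came from the RefSeq genome of the same assembly, where all 76 annotated start codons of the members read ATG. Python 3.11.15 with numpy 2.4.6, pandas 2.3.3 and scipy 1.17.1 was used, and the assignment was tested on simulated data. The limit beside a count of 0 is the share made by 3 counts.

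The members and lists were chosen with earlier results of these data known. Named genes were all members with an optimal summit and the 5 strongest with a pooled summit only, and members with no pooled summit were named. Rpt6 was named with its position, and the genes in replicate 1 only with their values, after these had been seen, as was the repeat at Rpn3. Alternatives were windows of 250 and 1000 bp, the most upstream TSS, the nearest TSS, the 1322 strongest peaks of the optimal set, each replicate alone and, added after seeing the data, first copies only. For each replicate alone, its 2644 strongest peaks stood in for the optimal set and its whole list for the pooled list.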

Additional observations from a re-analysis of the deposited data

How the results depend on the processing

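Over the alternatives run, 54 of 55 values stayed within the interval of the reported share or difference or, for the median pooled offset, within its quartiles, and none changed sign. The exception was the share of members with a pooled-list summit, which was 25% with both replicates and ranged from 25% to 50% when a replicate was left out. The value of 50%, or 24 of 48 genes, was obtained without replicate 2, and the background then was 48.0%. The intervals rest on few genes and are wide, and the alternatives re-count the same genes. The count of 54 is therefore no measure of robustness. The optimal share ranged from 4.17% to 10.4%. Rpn5 was lost with a window of 250 bp and with the nearest TSS, Rpn6 with the most upstream TSS, and Rpt5 in the 1322 strongest peaks of the set and without replicate 1. Without replicate 2, Prosalpha7 and Rpn3 were gained, and core genes were then at 1 of 25 (4%). The difference of core minus regulatory genes ranged from −16.7 to −8.70 percentage points in the optimal set and from −22.8 to −4.17 in the pooled list, the last without replicate 2. The alternative of first copies only was not run on a replicate alone. In replicate 1, first copies had summits at 85.7% of core genes and 61.1% of regulatory genes, the opposite order, with overlapping intervals. The difference of first copies minus duplicates ranged from 6.25 to 15.6 points. No paired analysis was possible because there is 1 group only. Depth is unknown, so the precision of a single signal could not be given, and with 25 core genes an observed 0 leaves shares up to 12% undetectable.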
